A study of Mus musculus with 2 samples.

Results

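The 10 genes described here encode enzymes and cytokines through which myeloid cells restrain T cells: Arg1, Arg2, Nos2, Ptgs2, Acod1, Entpd1, Nt5e, Tgfb1, Il10 and Ido1. They were taken by symbol from the 32285 gene rows of each of 2 single-cell RNA libraries, and all 10 had a row in both. The cells came from female BALB/cAnNCrl mice in which 4T1-Luc breast carcinoma cells, a luciferase-carrying line, had been seeded into the liver by hemisplenectomy. Each mouse then received a hepatic arterial infusion (HAI) of either the dextrose vehicle or CBL0137 at a low or a high dose. CBL0137 is a curaxin that binds DNA and destabilizes chromatin. Cells were taken 5 days later, and the cells of 2 mice were pooled per group. The groups were marked by hashtag antibodies, A0301 for the vehicle, A0305 for the low dose and A0310 for the high dose. No source used here states the doses. Every group, the vehicle included, carried the tumor and had undergone removal of part of the spleen and the infusion. The question addressed is which myeloid cells held these transcripts and at what level in each dose group.

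The tissue labels went against the contents of the libraries. Transcripts of hepatocytes summed to 0.131 UMIs per 1000000 (CPM) in the liver-labelled library and 87.1 in the spleen-labelled library, and those of Kupffer cells, the resident macrophages of the liver, to 8.96 and 481. Transcripts of splenic B cells and red pulp summed to 146 CPM in the liver-labelled library and 37.6 in the spleen-labelled library. The libraries are therefore called liver-labelled and spleen-labelled throughout. They shared 15 barcodes. After hashtag calling, the liver-labelled library held 3103 vehicle, 3194 low-dose and 2138 high-dose cells, with medians of 4497 to 4794 UMIs, and the spleen-labelled library 822, 1301 and 865 cells with medians of 4694 to 7930. T cells and B cells were present in both. The study's methods name bead isolation of CD11b+ cells, while its figure legends name liver leukocytes and its results report T, B and NK cells.

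Each group was 1 pooled sample per library, so no test was possible and no p-value is given. Levels are CPM from the UMIs of all cells that a class had in a group, with exact Poisson intervals at 95% in brackets. Ratios are given on the log2 scale with exact conditional binomial intervals, and every interval covers counting error only, not the spread between mice. A ratio was counted as past the fold when it reached 2-fold in either direction with at least 30 UMIs over both groups. Cell classes came from clusters built without the 10 genes and their pathway genes, and a cluster was named from at least 3 raised markers. Because the names came from the marker lists, sums of these lists describe the classes and are no check of the names. The neutrophil list of 17 genes made up 382674 CPM of the vehicle neutrophil-like cells in the liver-labelled library and 349565 in the spleen-labelled library. In the macrophage-like cells it made up 5038.5 and 1218 CPM.

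Arginase 1 and arginase 2, the products of Arg1 and Arg2, break down arginine, and inducible nitric oxide synthase, the product of Nos2, turns the same amino acid into nitric oxide. Cyclooxygenase 2 (Ptgs2) starts prostaglandin E2 synthesis, Acod1 makes itaconate, CD39 (Entpd1) and CD73 (Nt5e) act in turn on extracellular ATP and AMP to give adenosine, and indoleamine 2,3-dioxygenase 1 (Ido1) degrades tryptophan. Together with the cytokines TGF-beta 1 and IL-10, these are the products usually named for myeloid-derived suppressor cells (MDSCs), which in 4T1-bearing mice are largely of the neutrophil lineage.

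In mm10 the genes lie on 9 chromosomes: Arg1 at chr10:24915221-24927484 (minus strand), Arg2 at chr12:79130777-79156301, Nos2 at chr11:78920787-78960254, Ptgs2 at chr1:150100031-150108227, Acod1 at chr14:103046977-103056573, Entpd1 at chr19:40612366-40741602, Nt5e at chr9:88327197-88372092, Tgfb1 at chr7:25687002-25705077, Il10 at chr1:131019845-131024974 and Ido1 at chr8:24584136-24597009 (minus strand). Upstream sequence is shown for Ptgs2 and Acod1, because these were the 2 members lower by 2-fold at the high dose in neutrophil-like cells of the spleen-labelled library. Both are from RefSeq, GRCm38.p6, plus strand, 150 bases at chr1:150099881-150100030 and chr14:103046827-103046976. The Ptgs2 stretch ends just before the gene start of both annotations. The RefSeq start of Acod1 lies at 103047012, downstream of the gene start given above, so its stretch runs from -185 to -36 of the RefSeq start. Capitals mark the match to a motif searched by its letters on both strands.
Ptgs2: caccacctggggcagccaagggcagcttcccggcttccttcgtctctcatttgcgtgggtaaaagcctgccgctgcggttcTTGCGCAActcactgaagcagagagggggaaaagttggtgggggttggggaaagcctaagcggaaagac
Acod1: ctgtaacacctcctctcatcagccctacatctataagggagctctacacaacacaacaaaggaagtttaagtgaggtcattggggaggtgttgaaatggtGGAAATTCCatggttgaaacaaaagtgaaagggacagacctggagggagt
The Ptgs2 match is to a C/EBP motif written TTGCNNAA, from -69 to -62 of the RefSeq start, which 9.56% of 32851 promoters held in the same 250 upstream bases. The Acod1 match is to an NF-kB motif written GGNNNTTCC, from -85 to -77 of its RefSeq start, held by 15.7% of them. Of the other searched motifs, CRE (ACGTCA, 6.47% of promoters), AP-1 (TGANTCA, 6.75%) and an E-box (CACGTG, 6.02%), a CRE match stood in an Entpd1 promoter from -184 to -179. The windows of Tgfb1 and Nt5e held none of these letters, and Arg1, Arg2, Nos2, Il10 and Ido1 were not searched.

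The 10 genes fell into different cell classes, not all of them myeloid. Among the vehicle classes of the liver-labelled library, Arg2, Nos2 and Acod1 each stood highest in neutrophil-like cells. Of these, Acod1 alone also stood apart from the next class by its intervals in neutrophil-like cells of the spleen-labelled library. Entpd1 was shared by several classes, and Arg1 was a macrophage transcript in the spleen-labelled library. Tgfb1 was spread over myeloid and lymphoid classes and, in the spleen-labelled library, endothelial-like cells. Nt5e lay mostly in T cell-like cells of the liver-labelled library and in tumor cell-like cells of the spleen-labelled library. In the liver-labelled library, neutrophil-like cells were 34.5% of the assigned cells and held 90.3% of the Arg2 UMIs, 92.8% of Nos2, 94.5% of Acod1, 88.4% of Ptgs2 and 79.3% of Entpd1. They were 38.2% of the cells of the spleen-labelled library and held 61.1% of Arg2, 57.3% of Nos2, 75.7% of Acod1 and 33.7% of Ptgs2. The macrophage-like cells there, 9.91% of the cells, held 90.7% of Arg1, 41.3% of Entpd1, 30.1% of Tgfb1, 29.9% of Nos2 and 27.4% of Ptgs2. Il10 and Ido1 were close to absent, with 20 and 2 UMIs over 8435 assigned cells of the liver-labelled library and 28 and 8 over 2988 of the spleen-labelled library.

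**Figure D1:**
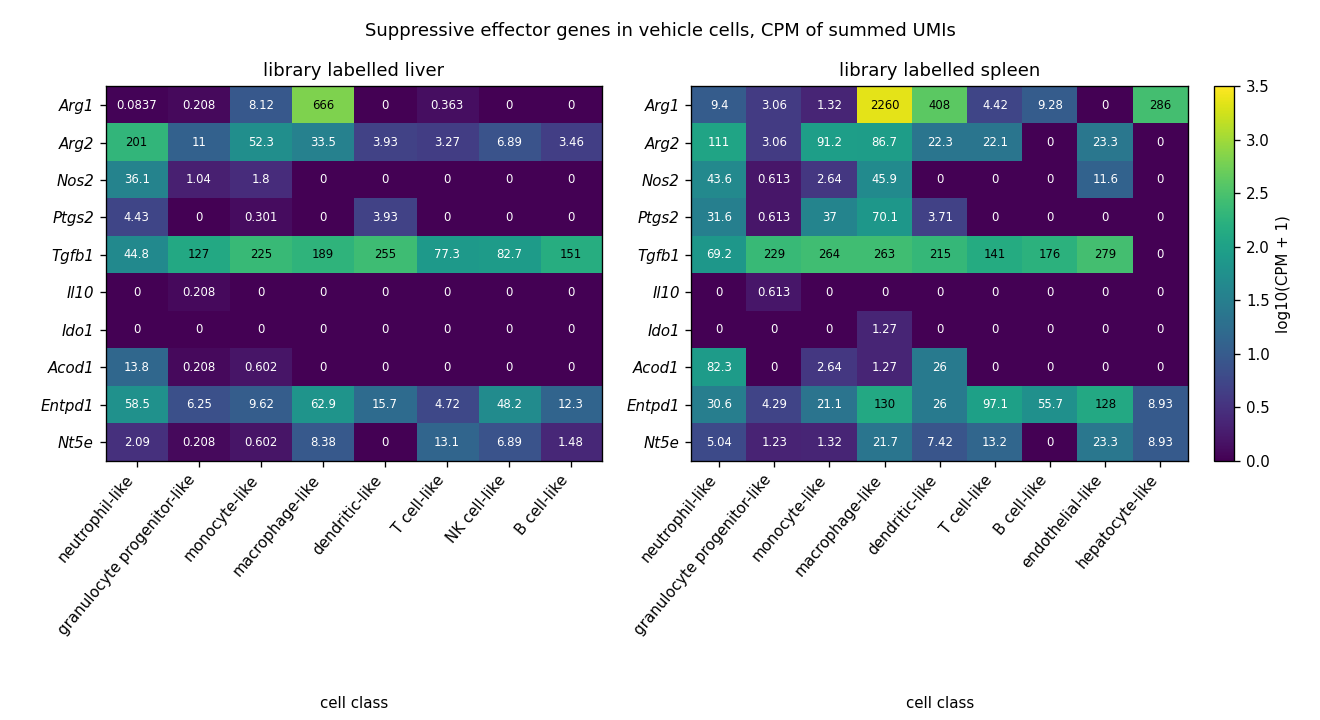
Level of each of the 10 genes (CPM of summed UMIs, colour on a log10(CPM + 1) scale) in vehicle cells of each class with at least 20 cells, in both libraries. Arg1 stands at 2259.6 CPM in macrophage-like cells of the spleen-labelled library, while Arg2 is highest in neutrophil-like cells in both libraries.

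Arg1, the arginase of alternatively activated macrophages and of the hepatocyte urea cycle, stood at 2259.6 CPM [2155.6, 2367] in vehicle macrophage-like cells of the spleen-labelled library. Its next levels there were 408 [335, 492] in dendritic-like cells, where 4 of 69 cells held the 110 UMIs, and 286 [195, 403] in hepatocyte-like cells. These 2 classes did not differ beyond their intervals, and neutrophil-like cells stood far below at 9.40 [6.25, 13.6]. The hepatocyte-like cells were a cluster led by the mitochondrial genes mt-Nd3, mt-Nd2, mt-Nd4, mt-Atp6 and mt-Cytb, with 4 of 10 hepatocyte markers raised. The liver-labelled library held 240 Arg1 UMIs in all, 159 of them in 1 vehicle macrophage-like cell, and 1 UMI in its 2913 neutrophil-like cells. The macrophage-like cells of the spleen-labelled library were themselves split: cluster 4, led by Arg1, Ccl8, Pf4, Ccl12 and Mmp12, held 7703 Arg1 UMIs in 221 cells, and cluster 14, led by the Kupffer cell genes Marco, Clec4f, Cd5l, Vsig4 and Cd163, held 5 in 75 cells. Nos2 had 235 UMIs in cluster 4 and 0 in cluster 14, whereas Entpd1 stood at 155 CPM in cluster 14 and 90.1 in cluster 4.

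Arg2, the mitochondrial arginase, stood at 201 CPM [193, 209] in vehicle neutrophil-like cells of the liver-labelled library, above monocyte-like cells at 52.3 [44.9, 60.7]. The 3 leading classes of the spleen-labelled library overlapped, at 111 [99.5, 124] in neutrophil-like, 91.2 [71.0, 115] in monocyte-like and 86.7 [67.3, 110] in macrophage-like cells. The vehicle neutrophil-like cells held 2403 and 331 Arg2 UMIs in the liver-labelled and spleen-labelled libraries, and 1 and 28 Arg1 UMIs. Nos2 stood at 36.1 CPM [32.7, 39.6] in neutrophil-like cells of the liver-labelled library, and the next class, monocyte-like cells, at 1.80 [0.662, 3.93]. Macrophage-like and neutrophil-like cells of the spleen-labelled library held Nos2 at levels with overlapping intervals, 45.9 [32.1, 63.5] and 43.6 [36.5, 51.8].

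Of the 10 genes, Acod1 had the largest share of its UMIs in neutrophil-like cells in both libraries. In vehicle cells it stood at 13.8 CPM [11.8, 16.1] in neutrophil-like cells of the liver-labelled library and 82.3 [72.3, 93.2] in those of the spleen-labelled library, and the next classes were at 0.602 (monocyte-like, 2 UMIs) and 26.0 (dendritic-like, 7 UMIs). Ptgs2 differed in where it was found. In the liver-labelled library it stood at 4.43 CPM [3.32, 5.80] in neutrophil-like cells, and in the spleen-labelled library at 70.1 [52.8, 91.3] in macrophage-like, 37.0 [24.6, 53.5] in monocyte-like and 31.6 [25.5, 38.6] in neutrophil-like cells, neighbours whose intervals overlapped.

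Entpd1, the first enzyme of the adenosine route, stood at 62.9 CPM [35.2, 104] in macrophage-like and 58.5 [54.2, 63.0] in neutrophil-like cells of the liver-labelled library, with NK cell-like cells at 48.2 [19.4, 99.4], and the 3 intervals overlapped. Its level in the spleen-labelled library was 130.1 [106, 158] in macrophage-like cells, 128 [63.9, 229] in endothelial-like cells and 97.1 [60.9, 147] in T cell-like cells, with neutrophil-like cells at 30.6 [24.6, 37.5]. Nt5e, the second enzyme, had a different set of cells. T cell-like cells held 56.3% of its UMIs in the liver-labelled library, and 60 cells called 4T1 tumor cell-like held 74.3% in the spleen-labelled library, at 268 CPM [178, 388] in 6 vehicle cells, 156 [119, 201] in 13 low-dose cells and 151 [134, 169] in 41 high-dose cells. Neutrophil-like cells had Nt5e at 2.09 and 5.04 CPM in the vehicle groups.

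Tgfb1 was found in every leukocyte class with at least 20 vehicle cells, and neutrophil-like cells were the lowest of these in both libraries. It stood at 225 CPM [209, 242] in monocyte-like, 189 [138, 252] in macrophage-like and 44.8 in neutrophil-like vehicle cells of the liver-labelled library, and at 264 [229, 304], 263 [228, 301.1] and 69.2 in those of the spleen-labelled library. The 34 endothelial-like vehicle cells of the spleen-labelled library held Tgfb1 at 279 CPM [179, 415], an interval that overlapped that of monocyte-like cells. Neighbouring leukocyte classes in the order of Tgfb1, from dendritic-like to B cell-like and granulocyte progenitor-like cells, had overlapping intervals. Il10 had no UMI in neutrophil-like, macrophage-like or monocyte-like cells of the liver-labelled library, where 9 of its 20 UMIs lay in T cell-like cells. Of its 28 UMIs in the spleen-labelled library, 11 lay in 6 macrophage-like cells, with 0, 8 and 3 UMIs in the vehicle, low-dose and high-dose groups, and 7 in 1 B cell-like cell. Of the 8 Ido1 UMIs in that library, 7 were in 2 tumor cell-like cells and 1 in a macrophage-like cell. For Il10 and Ido1 no comparison between groups was possible at this depth.

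Counted per cell, Arg2 was found more often in neutrophil-like than in B cell-like cells once depth was made equal. After each cell was thinned to 500 UMIs, which left out no cell, 14.7% of vehicle neutrophil-like cells of the liver-labelled library had an Arg2 UMI (70.7% before thinning, median depth 4360), against 0.431% of B cell-like cells (median depth 3652.5), a class that should lack the gene. The thinned share was 5.06% in monocyte-like and 3.17% in macrophage-like cells of that library. The thinned shares in neutrophil-like cells of the spleen-labelled library were 12.9% for Arg2, 8.26% for Acod1, 4.41% for Entpd1, 3.86% for Ptgs2 and 1.38% for Nos2 (51.5%, 28.1%, 19.6%, 11.02% and 18.7% before thinning, median depth 4929). Arg1 was found in 29.5% of vehicle macrophage-like cells there after thinning and 59.0% before (median depth 10749). In the 44 vehicle T cell-like cells of the library (median depth 3738.5), the thinned share was 0% for Arg1, Arg2, Acod1, Ptgs2 and Nos2, which with so few cells allows up to 8.04% by the exact binomial interval, and 6.82% for Entpd1. The intervals of Arg1 in macrophage-like cells [18.5, 42.6] and of Arg2 in neutrophil-like cells [9.67, 16.8] lay above that limit, and those of Acod1, Ptgs2 and Nos2 did not, nor did Entpd1 stand above its share in T cell-like cells.

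Within the neutrophil-like class, several members followed the order of the clusters by granule genes. In the liver-labelled library, Camp, a secondary granule gene of immature neutrophils, stood at 18544 CPM in cluster 7 (led by Ltf, Camp, Ngp, Lcn2 and Anxa1), 1813 in cluster 9 (Prok2, Retnlg, Ly6g, Ceacam10 and Mmp8), 1053 in cluster 5 (Stfa3, Stfa2, Cstdc4, Cstdc5 and Prok2), 71.6 in cluster 2 (Saa3, Hist1h2bc, Il1b, Igfbp6 and Csf1) and 43.4 in cluster 3 (Il1b, Igfbp6, Csf3r, Gm5150 and Hist1h2bc). Over these clusters in that order, Arg2 in vehicle cells was at 52.6, 205, 235, 368 and 351 CPM. Entpd1 was at 9.47, 41.6, 43.6, 125 and 144 CPM. Both were lowest in the Camp-high cluster and highest in the Il1b clusters, and the intervals of clusters 2 and 3 overlapped for each. Depth differed along the same clusters, with medians over all groups of 22891, 11822, 13149, 3305 and 3513 UMIs per cell. The levels are therefore shares of a cluster's UMIs, and their order need not hold for UMIs per cell.

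Acod1 had the same direction, at 1.68, 14.1, 14.9, 24.9 and 33.6 CPM, while Nos2 was low in cluster 7 alone, at 6.52, 63.2, 47.5, 50.6 and 71.0 CPM. Ptgs2 was counted in vehicle cells of clusters 2 and 3 only, at 17.5 CPM [12.8, 23.4] and 5.98 [2.58, 11.8], with 0 UMIs in the 189, 81 and 158 vehicle cells of clusters 7, 9 and 5. Tgfb1 was at 34.7, 24.1, 30.2, 70.5 and 72.5 CPM, so that its share of the UMIs too was higher in the Il1b clusters.

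The spleen-labelled library showed a steeper order for Arg2, Nos2 and Acod1, over clusters that do not match those of the liver-labelled library. The granulocyte progenitor marker list summed to 5194 CPM in its vehicle neutrophil-like cells, against 286 in those of the liver-labelled library. There, cluster 12 (Elane, Prtn3, Fcnb, Ms4a3 and Hist1h1b) was named granulocyte progenitor-like and is not in the order. The part of this difference in the steepness was not tested. The spleen-labelled clusters, from high to low Camp, were cluster 8 (Camp, Cebpe, Fcnb, Ngp and Hmgn2), cluster 3 (Ly6g, Ltf, Ifitm6, Ceacam10 and Cd177), cluster 0 (Stfa3, Stfa2, Cstdc4, Retnlg and Prok2) and cluster 1 (Il1b, Ccrl2, Hcar2, Acod1 and G0s2). Arg2 in vehicle cells was at 5.38, 108, 242 and 335 CPM over them. Nos2 was at 1.54, 27.8, 109 and 146 CPM, and Acod1 at 3.08, 12.7, 189 and 420.2 CPM. Arg2, Nos2 and Acod1 were each close to absent from cluster 8, the cells with the progenitor gene Cebpe, and highest in cluster 1, although the intervals of clusters 0 and 1 overlapped for Arg2 and Nos2. Ptgs2 was concentrated in cluster 1 at 281 CPM [223, 351], against 4.61 to 7.59 in the other 3. Tgfb1 had another order, at 105, 40.5, 33.4 and 64.1 CPM. The median depths of clusters 8, 3, 0 and 1 over all groups were 19640, 11158, 4952 and 2189 UMIs per cell.

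**Figure D2:**
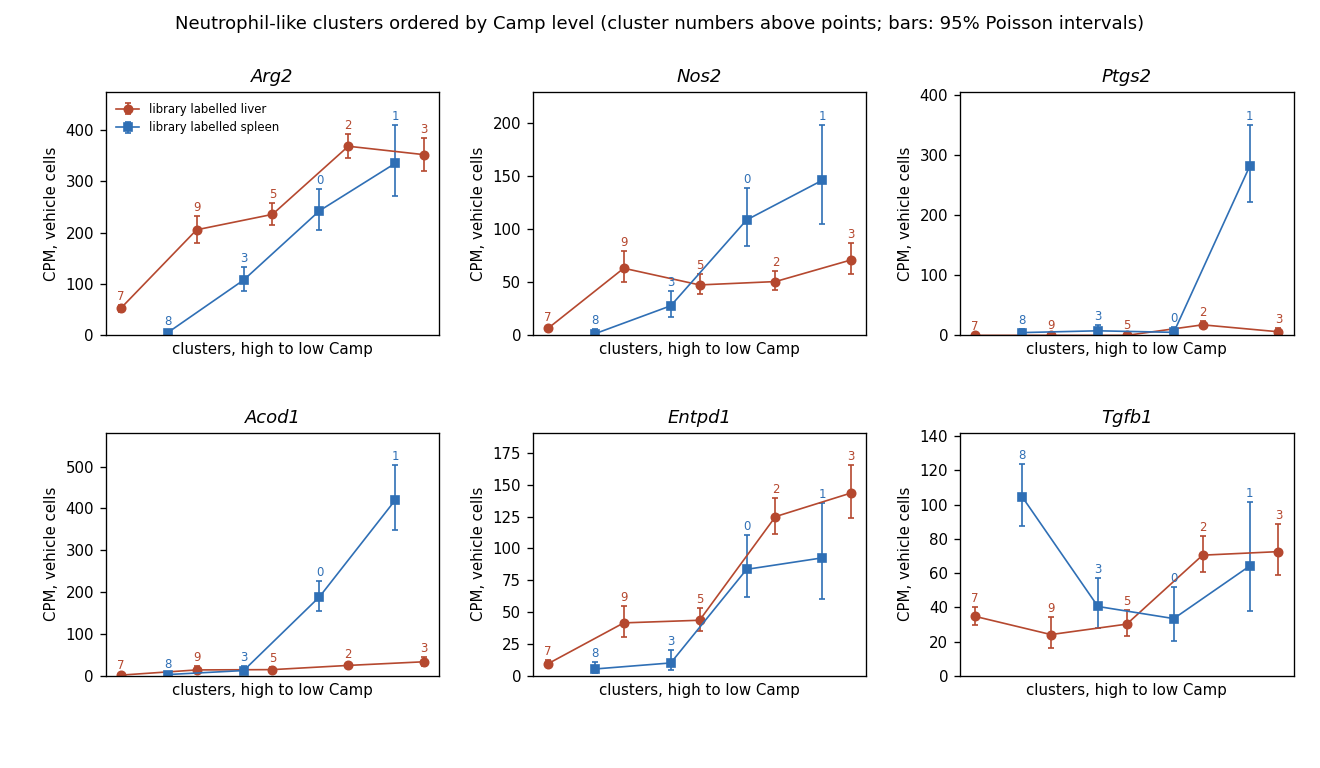
Levels (CPM, bars are 95% Poisson intervals) of Arg2, Nos2, Ptgs2, Acod1, Entpd1 and Tgfb1 in vehicle cells of the neutrophil-like clusters, ordered from high to low Camp, in both libraries. Arg2 goes from 52.6 to 351 CPM along the 5 clusters of the liver-labelled library and from 5.38 to 335 along the 4 clusters of the spleen-labelled library that had at least 20 vehicle cells.

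The dose groups filled these clusters differently, and values of the whole class have to be read beside that. In the liver-labelled library, cluster 2 held 45.4% of the 1426 neutrophil-like cells in the vehicle group, 23.5% of 1288 at the low dose and 4.52% of 199 at the high dose, and cluster 3 held 24.6%, 35.2% and 1.51%. Cluster 5 made up 11.1%, 13.7% and 56.3% of these cells. In the spleen-labelled library, cluster 1 made up 33.3%, 30.2% and 2.56% of the vehicle, low-dose and high-dose cells. The neutrophil-like share of all cells was 46.0%, 40.3% and 9.31% in the liver-labelled library and 44.2%, 47.8% and 18.03% in the spleen-labelled library. The high-dose cells were also deeper, with median depths of 4360, 5712.5 and 18606 UMIs in the first library and 4929, 4267.5 and 14205.5 in the second. Cluster 12 of the spleen-labelled library (Bcl2l15, Orm1, Saa1, Prnp and Retnlg) held 121 low-dose cells, 2 high-dose cells and 1 vehicle cell.

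**Figure D3:**
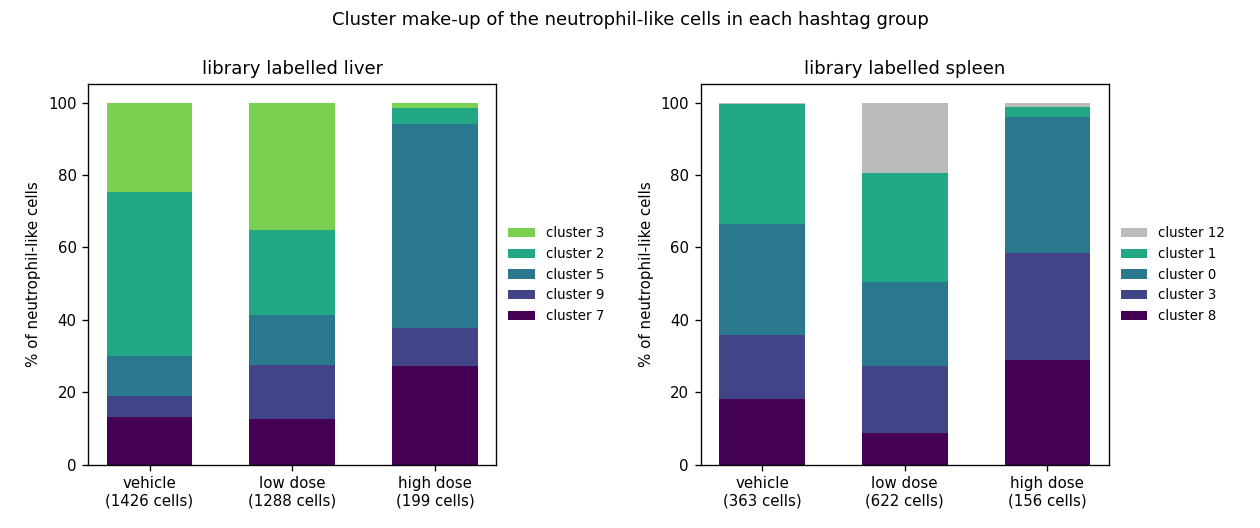
Share of neutrophil-like cells (percent of the class, stacked to 100) in each cluster, by dose group and library. Cluster 5 of the liver-labelled library makes up 56.3% of high-dose cells against 11.1% of vehicle cells, and cluster 1 of the spleen-labelled library 2.56% against 33.3%.

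Summed over the class, 1 of the 7 members countable at the high dose in the liver-labelled library was past the fold, Ptgs2, where 16.6% of 8403 countable genes were. The median log2 ratio of the members was -0.68 and that of all countable genes -0.36. Ptgs2 had 53, 46 and 0 UMIs in the vehicle, low-dose and high-dose cells, at 4.43, 4.16 and 0 CPM, so that its high-dose level was at least 5.93-fold lower when the 0 is set to 3 UMIs over the group and the vehicle count is taken as exact. With the counting error of that ratio included, the log2 bound was -2.22 in place of -2.57. Nos2 was at 36.1, 37.0 and 20.2 CPM, a log2 ratio of -0.84 [-1.20, -0.49] at the high dose. The low-dose levels of both genes lay within counting error of the vehicle, and the high-dose levels lay below both.

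Entpd1 was at 58.5, 64.8 and 36.6 CPM in the same cells, with a high-dose log2 ratio of -0.68 [-0.94, -0.42]. Acod1 was at 13.8, 25.3 and 8.47 CPM, with log2 ratios of 0.87 [0.59, 1.16] at the low dose and -0.70 [-1.28, -0.17] at the high dose. Acod1 was the member whose low-dose level stood farthest above the vehicle in this class and library, and it remained short of 2-fold. Arg2 was level over the groups, at 201, 201 and 186 CPM, with a high-dose log2 ratio of -0.11 [-0.23, 0.0057]. Tgfb1 was at 44.8, 51.5 and 36.1 CPM, a high-dose ratio of -0.31 [-0.58, -0.042], and Nt5e at 2.09, 2.53 and 2.24. At the low dose 0 of 7 countable members were past the fold, where 2.47% of genes were, with a member median of 0.15 beside -0.11. In these cells the marker list of macrophages summed to 217, 201 and 103 CPM over the groups, that of monocytes to 134, 174 and 73.8, that of basophils and mast cells to 3.43, 5.51 and 101 and that of red cells to 431, 174 and 37.9, and their part in the members' levels was not tested.

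In the spleen-labelled library, 3 of 7 countable members were past the fold at the high dose, Ptgs2 and Acod1 lower and Arg1 higher, where 5.05% of 6691 genes were, with a median of -0.38 beside 0.018 for all countable genes. Ptgs2 was at 31.6, 51.9 and 7.70 CPM in the vehicle, low-dose and high-dose cells, a high-dose log2 ratio of -2.04 [-2.85, -1.30]. Acod1 was at 82.3, 118 and 32.1 CPM, with ratios of 0.53 [0.30, 0.76] and -1.36 [-1.75, -0.98]. Both genes were thus higher at the low dose and lower at the high dose than in the vehicle cells. These values are without a filter on genes or mitochondrial UMIs. Dropping cells with fewer than 200 genes or with 10% or more of their UMIs from mitochondrial genes turned the Ptgs2 ratio to 0.33. The class then had 254 vehicle cells in place of 363 and 146 high-dose cells in place of 156, so the filter took unequal shares of the 2 groups. Arg1 was at 9.40, 4.83 and 21.8 CPM, from 28, 19 and 51 UMIs in 8, 10 and 16 cells, a high-dose ratio of 1.22 [0.52, 1.94]. T cell-like cells, a class that should lack Arg1, held it at 4.42 [0.112, 24.6], 50.2 [34.3, 70.8] and 21.2 [14.2, 30.4] CPM, and in no group did the neutrophil-like level lie above theirs beyond the intervals. The macrophage marker list in the neutrophil-like cells summed to 175, 161 and 352 CPM, and its part in the Arg1 level was not tested. The high-dose Arg1 ratio turned to -0.63 when the clusters were built by log-normalization.

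The remaining members of this class kept closer to the vehicle. Arg2 was at 111, 156 and 102 CPM, Nos2 at 43.6, 63.3 and 30.4, and Entpd1 at 30.6, 38.7 and 23.5. The high-dose log2 ratios were -0.13 [-0.37, 0.12] for Arg2, -0.52 [-0.96, -0.095] for Nos2 and -0.38 [-0.89, 0.12] for Entpd1. Tgfb1, at 69.2, 65.9 and 63.8 CPM, was the flattest of them. At the low dose 0 of 8 countable members were past the fold, where 3.85% of genes were, with a median of 0.41 beside -0.075. The transcripts of red cells in this class summed to 179, 3796 and 407 CPM over the groups, and their part in these levels was not tested.

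**Figure D4:**
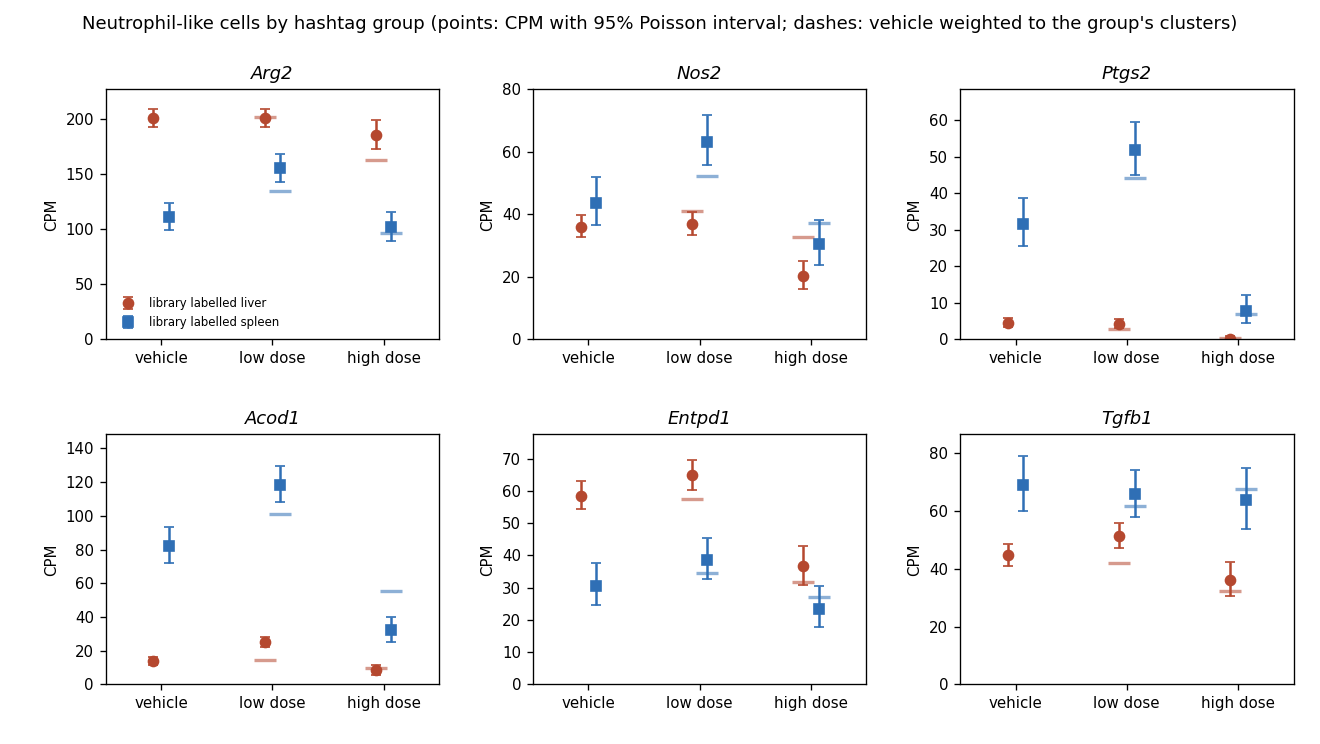
Levels (CPM, bars are 95% Poisson intervals) of 6 members in neutrophil-like cells by dose group and library. Dashes show the vehicle level weighted by each cluster's share of the UMIs of the dose group. Ptgs2 goes from 31.6 to 7.70 CPM between vehicle and high dose in the spleen-labelled library, where the weighted vehicle level is 6.99.

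When the clusters were held fixed, most of the high-dose differences were smaller. For this, each cluster's vehicle level was weighted by the cluster's share of the high-dose UMIs, not by its share of cells. So weighted, the vehicle level of Ptgs2 in the spleen-labelled library was 6.99 CPM against 7.83 counted in the same clusters. The log2 ratio was 0.16 in place of -2.04. In the liver-labelled library the weighted vehicle level of Ptgs2 was 0.363 CPM, so that no ratio could be formed against the 0 UMIs counted. The ratios of Entpd1, Arg2 and Tgfb1 in that library became 0.21, 0.19 and 0.16. Nos2 kept a ratio of -0.69 in the liver-labelled library and -0.37 in the spleen-labelled library, and Acod1 one of -0.21 and -0.78. Arg1 in the spleen-labelled library stood at 1.29. The weighting was chosen after the different cluster mix had been seen.

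Single clusters were then compared where both groups had at least 20 cells. In cluster 5 of the liver-labelled library, the main high-dose cluster, Arg2 was at 235, 220 and 239 CPM and Entpd1 at 43.6, 58.4 and 45.3 in the vehicle, low-dose and high-dose cells. Nos2 there was at 47.5, 50.2 and 32.6 CPM, a high-dose log2 ratio of -0.54 [-1.02, -0.074]. Arg2 and Entpd1 were therefore level at the high dose within this cluster, and Nos2 was lower. Tgfb1 had high-dose ratios of 0.13 [-0.39, 0.66], 0.31 [-0.11, 0.73] and 0.049 [-1.22, 1.17] in clusters 5, 7 and 9. In cluster 7, the Camp-high cells, Arg2 was at 52.6, 48.4 and 99.4 CPM, with a high-dose ratio of 0.92 [0.62, 1.21]. The low-dose Acod1 level was above the vehicle within cluster 2 (24.9 and 58.0 CPM, 1.22 [0.71, 1.73]) and cluster 5 (14.9 and 27.99 CPM, 0.91 [0.26, 1.59]), and barely so in cluster 9 (0.82 [0.0090, 1.69]). In cluster 3, which held the most low-dose cells, the Acod1 ratio was 0.39 [-0.15, 0.95], and in cluster 7 it was 1.17 [-0.18, 2.63], both within counting error of the vehicle.

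Cluster 0 of the spleen-labelled library held enough cells of all 3 groups. Acod1 there was at 189, 205 and 85.5 CPM, a high-dose log2 ratio of -1.14 [-1.65, -0.65], and Nos2 at 109, 68.8 and 64.9, one of -0.74 [-1.36, -0.14]. Entpd1 was at 83.6, 53.8 and 39.3 CPM, a ratio of -1.09 [-1.87, -0.35]. Arg2 was again level, at 242, 233 and 243 CPM. Ptgs2 went the other way from the class as a whole, at 5.01, 37.4 and 17.1 CPM from 3, 25 and 10 UMIs, with log2 ratios of 2.90 [1.19, 5.27] at the low and 1.77 [-0.19, 4.27] at the high dose. In cluster 1 only vehicle and low-dose cells sufficed, and Ptgs2 was at 281 and 311 CPM, 0.15 [-0.26, 0.56]. Cluster 12, the low-dose cluster, had Nos2 at 231 CPM, Arg2 at 261, Acod1 at 136 and Ptgs2 at 35.4.

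In macrophage-like cells of the spleen-labelled library, 2 of 8 countable members were past the fold at the high dose (Acod1 higher and Nt5e lower), where 6.55% of 8036 genes were, and 3 of 8 at the low dose (Acod1 and Nos2 higher and Nt5e lower), where 4.71% of 7009 genes were. The member medians were -0.56 and 0.29, beside 0.025 and 0.0090 for all countable genes. Over the class, Arg1 was at 2259.6, 1687 and 1517 CPM in the 61 vehicle, 112 low-dose and 123 high-dose cells, with log2 ratios of -0.42 [-0.51, -0.33] and -0.57 [-0.66, -0.49]. Within cluster 4 alone it was at 2399, 2005 and 2061 CPM, with ratios of -0.26 [-0.35, -0.17] and -0.22 [-0.30, -0.14]. Cluster 14, where Arg1 was nearly absent, held 8, 27 and 40 cells of the 3 groups.

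Nos2 in these cells was at 45.9, 92.4 and 27.98 CPM, with log2 ratios of 1.01 [0.47, 1.58] at the low and -0.71 [-1.33, -0.083] at the high dose. Its UMIs came from 11, 19 and 9 cells, and without the cell with the most UMIs of each group the ratios were 1.13 and -0.88. With groups called by the dominant hashtag, the low-dose ratio was -0.79. With hashtags called by MULTIseqDemux the high-dose ratio was 0.74. The size of the high-dose class depended on this calling. It was 123 cells in the main calls, 246 with MULTIseqDemux and 339 with the dominant hashtag, beside 61, 55 and 73 vehicle cells. Arg2 had the same order, at 86.7, 135 and 59.5 CPM, with ratios of 0.64 [0.24, 1.06] and -0.54 [-0.97, -0.10]. Ptgs2 was at 70.1, 79.4 and 37.6 CPM, with a low-dose ratio of 0.18 [-0.30, 0.67], within counting error, and a high-dose ratio of -0.90 [-1.40, -0.38]. The low-dose ratio of Ptgs2 was -0.70 with the dominant hashtag. At a clustering resolution of 0.4 the class kept 8 vehicle and 27 low-dose cells, the numbers of cluster 14, without cluster 4. The low-dose ratio of Arg2 in these few cells was -1.98. That of Ptgs2 was -3.93, but no vehicle Ptgs2 UMI was left. It rests on the 3 UMIs set for such a count and gives no direction.

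Acod1 had 1 UMI in the vehicle macrophage-like cells, 102 in 25 low-dose cells and 49 in 16 high-dose cells, at 1.27, 69.8 and 21.4 CPM. The log2 ratios were 5.78 [3.26, 11.1] and 4.07 [1.53, 9.40], with the vehicle level resting on that 1 UMI. At resolution 0.4 the class had 8 vehicle and 40 high-dose cells, the numbers of cluster 14, and no vehicle Acod1 UMI. The high-dose ratio of -2.51 there rests on the 3 UMIs set for that count and gives no direction. The neutrophil marker list in the same cells summed to 1218, 6613 and 6930 CPM, with each of the 17 markers but Hdc counted in the vehicle cells and all 17 at both doses, and its part in the Acod1 level was not tested. In the neutrophil-like cells of the same library the same list summed to 349565, 366785 and 340192 CPM beside Acod1 at 82.3, 118 and 32.1 CPM. Transcripts of red cells summed to 28.1, 2325 and 31.0 CPM in the macrophage-like cells. Nt5e was at 21.7, 9.58 and 7.43 CPM, from 17, 14 and 17 UMIs, with ratios of -1.18 [-2.31, -0.070] and -1.54 [-2.60, -0.49]. Entpd1 was at 130.1, 87.6 and 103 CPM.

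**Figure D5:**
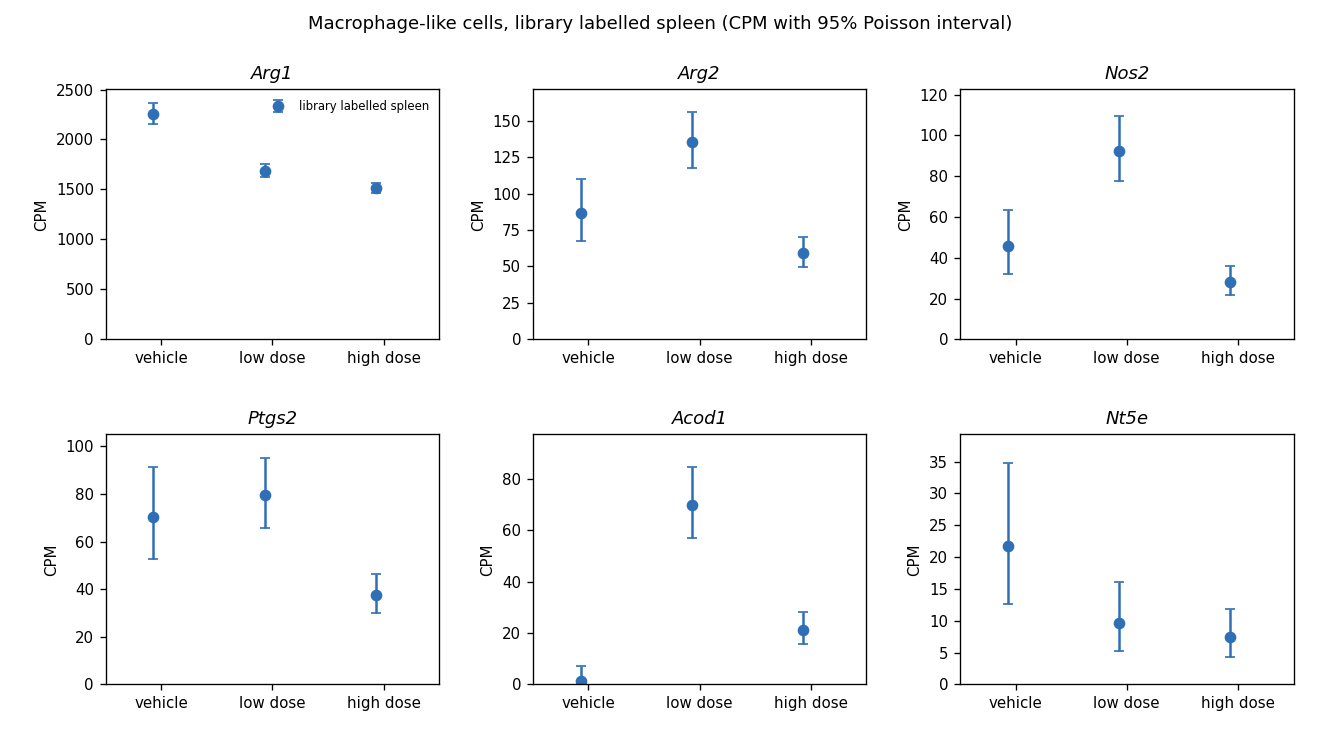
Levels (CPM, bars are 95% Poisson intervals) of Arg1, Arg2, Nos2, Ptgs2, Acod1 and Nt5e in macrophage-like cells of the spleen-labelled library by dose group. Arg2 and Nos2 have their highest level at the low dose, Ptgs2 its lowest at the high dose, and Acod1 goes from 1.27 CPM in the vehicle to 69.8 at the low and 21.4 at the high dose.

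Tgfb1 was the member with a higher level at both doses in macrophage-like and monocyte-like cells of both libraries. In macrophage-like cells it was at 189, 291 and 332 CPM in the liver-labelled library and 263, 348 and 332 in the spleen-labelled library. In monocyte-like cells it was at 225, 310 and 345 CPM in the first library and 264, 346 and 357 in the second. The high-dose log2 ratios were 0.81 [0.18, 1.45] and 0.34 [0.11, 0.57] in macrophage-like cells and 0.62 [0.39, 0.84] and 0.43 [0.14, 0.72] in monocyte-like cells, all short of 2-fold. The macrophage-like cells of the liver-labelled library were few and shallow, with 63, 56 and 64 cells and median depths of 1602, 2789 and 866 UMIs, and the T cell marker list in them summed to 2318, 2226 and 3227 CPM, whose part was not tested.

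Of the 2 members countable in those cells, Arg1 was past the fold at both doses (10.4% of genes at the high and 8.09% at the low dose), but its 159 vehicle UMIs were in 1 of 63 cells, and without that cell the vehicle count was 0. The low-dose cells held 4 Arg1 UMIs in 1 cell and the high-dose cells none, so no level of the class could be compared. In monocyte-like cells of the spleen-labelled library, 3 of 6 countable members were past the fold at the high dose, where 5.31% of genes were, with a median of 0.81 beside 0.061. Arg1 had 1, 27 and 29 UMIs in 72 vehicle, 78 low-dose and 39 high-dose cells, a high-dose log2 ratio of 5.24 [2.65, 10.6]. Acod1 had 2, 14 and 48, of which the 48 were in 4 cells, and Entpd1 was at 21.1, 16.4 and 43.1 CPM, a high-dose ratio of 1.03 [0.064, 2.03]. At the low dose 0 of 4 countable members there were past the fold, where 3.92% of genes were. The neutrophil marker list in these cells summed to 20260.3, 17878 and 23519.8 CPM and the macrophage list to 407, 430.0 and 379, and their part in the levels was not tested.

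In monocyte-like cells of the liver-labelled library, 0 of 3 countable members were past the fold at the high dose (9.65% of genes) and 1 of 4 at the low dose (3.43% of genes). That gene was Arg1, at 8.12 and 21.0 CPM with 22 of its 27 vehicle UMIs in 1 cell. Arg2 in monocyte-like cells was at 52.3, 74.8 and 86.3 CPM in this library and 91.2, 125 and 138 in the spleen-labelled library. Its low-dose and high-dose log2 ratios were 0.52 [0.18, 0.85] and 0.72 [0.25, 1.17] in the first, the latter from 54 UMIs in 26 high-dose cells. In the second they were 0.45 [0.0079, 0.90] and 0.60 [0.11, 1.08]. Both doses lay above the vehicle, and no ratio between the doses was formed. The neutrophil marker list was also higher at both doses in the monocyte-like cells of the liver-labelled library, at 12552.8, 17031 and 34826.5 CPM, and its part in the Arg2 level was not tested.

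The other genes of the same pathways were read as lists that left out the 10 members. In neutrophil-like cells of the liver-labelled library at the high dose, 1 of 6 arginine and polyamine genes, 1 of 8 prostaglandin genes, 1 of 8 TGF-beta genes, 1 of 9 IL-10 signalling genes, 1 of 3 tryptophan genes and 1 of 7 nitric oxide genes were lower by 2-fold. None of 8 itaconate and 7 purine genes was past the fold, and 1 nitric oxide gene was higher. Of all 8403 countable genes in these cells, 1323 were lower and 73 higher by the same rule. None of the 8 lists in the spleen-labelled library had a gene lower by 2-fold, and 1 gene each was higher among 7 arginine, 8 TGF-beta, 1 tryptophan and 6 nitric oxide genes. There, 197 of all 6691 countable genes were lower and 141 higher. The only list gene past the fold in the same direction in both libraries was Gchfr, the feedback regulator of GTP cyclohydrolase that limits the cofactor of nitric oxide synthase. Gchfr was at 6.36 CPM in vehicle and 15.9 in high-dose cells of the liver-labelled library, a log2 ratio of 1.33 [0.82, 1.83], and at 6.38 and 15.0 in the spleen-labelled library, one of 1.23 [0.39, 2.12]. The share of all countable genes past the fold alike in both libraries is not given, and the Gchfr ratios are without weighting to the cluster mix.

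In macrophage-like cells of the spleen-labelled library at the high dose, 3 of 12 prostaglandin genes and 1 of 10 arginine genes were higher by 2-fold, and 1 of 12 prostaglandin genes and 1 of 11 TGF-beta genes lower. Of all 8036 countable genes there, 398 were higher and 128 lower. At the low dose, 1 of 11 prostaglandin genes and 1 of 9 IL-10 signalling genes were higher and none of the 8 lists had a gene lower. Of all 7009 genes countable at that dose, 241 were higher and 89 lower.

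The genes with the most similar pattern were found by Pearson's r of log2(CPM + 10) over 54 sums of a cell class and dose group, among 9188 genes, as a description of sums that share their libraries and depth. Arg1 was most like Ccl12 (0.89), Vsig4 (0.88) and Ccl8 (0.85), genes of the macrophage-like clusters. In the spleen-labelled library, Ccl12 and Ccl8 were among the leading genes of cluster 4, which held nearly all Arg1 UMIs of the class. Vsig4 was among those of cluster 14, where Arg1 was nearly absent. The sums merge these clusters, so the likeness to Vsig4 holds for the class and does not place both transcripts in the same cells. Arg2 was most like Tarm1 (0.91), Clec4d (0.90) and Cd33 (0.90), which encode receptors of neutrophils and other myeloid cells. Nos2 was most like Fam20c (0.82), Cpd (0.81) and Upp1 (0.81), and Acod1 most like Osm (0.77), Trem1 (0.76) and Il1rn (0.76), genes of inflammatory myeloid cells. Ptgs2 went with Vegfa (0.81), Ccl2 (0.81) and Smox (0.80), and Tgfb1 with Clta (0.94), Irf2bp2 (0.89) and Hmox2 (0.87). Entpd1 had the weakest likeness, to Tmem140 (0.69), Plek (0.62) and Atxn1 (0.61), and Nt5e went with the genes Col6a1 (0.89), Map1b (0.88) and Mgp (0.88).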

How the data were processed

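Single-cell RNA libraries of 3 hashtagged groups were analysed, 1 with the label liver and 1 with the label spleen. The files deposited by the authors hold unnormalized UMI counts of each barcode for genes and hashtags, after cell calling with Cell Ranger (6.0.0 per the submitters' processing notes, 5.0.0 per the matrix header) on mm10, with no cell type labels. The 10 members and the marker and pathway lists were chosen with earlier results of these data known.

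HTODemux (Seurat 5.3.0, quantile 0.99) assigned hashtags, and only barcodes with 1 were used: 616 and 215 barcodes with several and 540 and 1627 with none were left out. Each library was processed in R 4.3.3 with SCTransform (sctransform 0.4.2), 30 principal components and clustering at resolution 0.8, with 97 member and pathway genes left out of the variable features. A cluster was named when at least 3 markers of a list stood at least 1.0 higher on the log2 scale than in the remaining cells and were found in at least 20% of its own and no other list had more markers among its leading 10 genes. Doublets within a hashtag were kept. Outside the alternatives no cell was left out for few genes or for its share of mitochondrial UMIs, which reached 97.67% and 98.99% in high-dose cells of the liver-labelled and spleen-labelled libraries. Scrublet (scanpy 1.11.5) called 234 barcodes (2.44%) in the liver-labelled library and 0 in the spleen-labelled library, where it therefore did not work, and their removal was an alternative.

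UMIs were summed per class and group and scaled to 1000000, with exact Poisson, Clopper-Pearson and conditional binomial intervals at 95.0% (Python 3.11.15, numpy 2.4.6, scipy 1.17.1, pandas 2.3.3). With 1 pooled sample per group no test was computed, and a count of 0 was set to 3 UMIs for a ratio. The ratio and its interval were run on simulated independent Poisson counts, the model from which the interval is derived. That run checks the computation only and does not cover UMIs gathered in few cells. The text names all 10 members, pathway genes past the fold in the same direction in high-dose neutrophil-like cells of both libraries, the 3 genes most like each member with at least 500 UMIs, and the 5 leading genes of named clusters. Alternatives covered hashtag calling, cell filters, doublets, clustering, scaling, the UMI minimum, thinning and pooled doses, and 3 more were added after seeing the data. Gene positions and promoters came from tables of the mm10 build, the latter for 5 members.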

Additional observations from a re-analysis of the deposited data

Results flagged for a closer look

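In 3 cases the high-dose ratios of neutrophil-like and of macrophage-like cells in the same library lay on opposite sides of 0, with intervals that left out 0 in both. The difference was not tested in any of them, since each group was 1 pooled sample. Tgfb1 in the liver-labelled library had a log2 ratio of -0.31 in neutrophil-like cells and 0.81 in macrophage-like cells, the latter from 45 vehicle and 44 high-dose UMIs. With the vehicle weighted to the cluster mix of the high-dose cells the neutrophil-like ratio of Tgfb1 was 0.16, and within clusters 5, 7 and 9 it was 0.13, 0.31 and 0.049, so that the opposite signs were not seen with the clusters held fixed. Arg1 in the spleen-labelled library had a ratio of 1.22 in neutrophil-like cells, from 28 and 51 UMIs, and -0.57 in macrophage-like cells, from 1772 and 3471. Weighted in the same way, these were 1.29 and -0.22, and the first was -0.63 with log-normalization. Acod1 in the spleen-labelled library had a ratio of -1.36 in neutrophil-like cells and 4.07 in macrophage-like cells, where the vehicle count was 1 UMI. Weighted, these were -0.78 and 4.21. The second was -2.51 at resolution 0.4, where a vehicle count of 0 was set to 3 UMIs, so that it gives no direction.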

How the results depend on the processing

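With 1 pooled sample per group, precision is set by UMIs and cells and not by mice. No paired analysis was possible because the labels give no replicate numbers and each group is 1 sample. Of the ratios recomputed, 8 changed sign after being past the fold: Ptgs2 at the high dose in neutrophil-like cells of the spleen-labelled library was at 0.33 with a filter on cells (200 genes and 10% mitochondrial UMIs), 0.17 with both doses together and 0.16 with the vehicle weighted to the cluster mix. In the same cells Acod1 was at 0.069 with both doses together and Arg1 at -0.63 with log-normalization. Arg1 in low-dose macrophage-like cells of the liver-labelled library was at 0.45 with MULTIseqDemux, and in macrophage-like cells of the spleen-labelled library high-dose Acod1 was at -2.51 at resolution 0.4 and low-dose Nos2 at -0.79 with the dominant hashtag. At resolution 0.4 the macrophage-like class of the spleen-labelled library had 8 vehicle, 27 low-dose and 40 high-dose cells, the numbers of cluster 14. Its values at that setting therefore describe cluster 14 without cluster 4. The Acod1 ratio there rests on the 3 UMIs set where no vehicle UMI was counted. For the other changes, except where a value above shows it, the cause was not tested.

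The count of members past the fold moved from 1 to 2 at the high dose in neutrophil-like cells of the liver-labelled library with the mean over cells or without each group's cell with the most UMIs (Nos2 then at -1.02), and to 0 with both doses together or the weighted vehicle. At the low dose it moved from 0 to 1 with monocyte-like cells added. In the spleen-labelled library the high-dose count of 3 became 0 with both doses together and 1 with the weighted vehicle, and the low-dose count of 0 became 1 with the dominant hashtag, the filter on cells, the mean over cells, the weighted vehicle, or without clusters with at least 90% of cells from 1 group. In macrophage-like cells of the liver-labelled library the high-dose count of 1 became 0 with MULTIseqDemux, log-normalization, all variable features, the mean over cells or without the top cells, and 3 at a minimum of 10 UMIs. The low-dose count of 1 became 0 with MULTIseqDemux, log-normalization, all variable features or without the top cells. In the spleen-labelled library the high-dose count of 2 became 1 with MULTIseqDemux or without the top cells and 0 at resolution 0.4, and the low-dose count of 3 became 1 with MULTIseqDemux or the dominant hashtag and 0 at resolution 0.4. Removing Scrublet doublets, resolution 1.6 and leaving the 20 most abundant genes out of the total moved none of the 8 counts by over 1.5 times. Thinning to 1000 UMIs moved 22 of 60 shares of cells, and no thinning 44.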

Other observations

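Dendritic-like cells of the spleen-labelled library, which are in no comparison above, held Arg1 at 408, 299 and 117 CPM in the vehicle, low-dose and high-dose groups, from 4, 12 and 6 cells with a UMI. Ptgs2 in the same cells was at 3.71, 128 and 7.18 CPM, with the 50 low-dose UMIs in 6 of 81 cells. Hepatocyte-like cells of that library, a cluster led by mitochondrial genes, held Arg1 at 286, 74.5 and 54.4 CPM. In the tumor cell-like cells, Ptgs2 was at 441 CPM in 6 vehicle cells, 63.4 in 13 low-dose cells and 63.3 in 41 high-dose cells, and Tgfb1 at 163, 119 and 83.4 CPM. Tgfb1 in T cell-like cells of the same library was at 141, 122 and 167 CPM.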
